A study of Rattus norvegicus with 72 samples.

Results

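The genes of the mitochondrial respiratory chain and of ATP synthase were followed in primary rat hepatocytes, liver cells freshly isolated and kept in culture, across 8 compounds, 2 exposure times and their controls. The module holds every probe set whose single gene symbol in the platform annotation begins with Ndufa, Ndufb, Ndufc, Ndufs, Ndufv, Uqcr, Cox4, Cox5, Cox6, Cox7, Cox8 or Atp5, or is Sdha, Sdhb, Sdhc or Sdhd. That gave 96 probe sets of 86 genes among the 31099 probe sets of the table, which name 14217 genes by 1 symbol. Complex I had 39 probe sets, complex II 5, complex III 8, complex IV 16 and complex V 20, sorted by the start of the symbol, so that complex I counts Ndufa4, now known as a subunit of complex IV, and its relative Ndufa4l2, and complex V counts 3 probe sets of its inhibitor Atp5if1, which is not a subunit. The symbols also took in 7 probe sets of complex I assembly factors (Ndufaf genes), not subunits either, and 1 of the pseudogene Cox6c-ps1. A further 7 probe sets were left out because the annotation gives them several symbols, those of Atp5mc1, Atp5mc2, Cox5a, Cox7a2, Ndufa10, Ndufs5 and Uqcrb with a near copy. Members can share probes with processed pseudogenes of their genes, which was not tested. Cox5a is still represented, by another and dimmer probe set.

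The respiratory chain carries electrons from nutrients to oxygen in the inner mitochondrial membrane. Complex I takes electrons from NADH and complex II (succinate dehydrogenase, an enzyme of the citric acid cycle) takes them from succinate, and both pass them to coenzyme Q. Complex III hands them on to cytochrome c and complex IV (cytochrome c oxidase) to oxygen, while complexes I, III and IV pump protons out of the matrix. Complex V (ATP synthase) lets the protons flow back and makes ATP from the energy released. All subunits measured here are encoded in the nucleus, complex II entirely so, and each is either a core subunit of the catalytic machinery or an accessory subunit that assembles and stabilises its complex. The redox core of complex IV is encoded in mitochondrial DNA, so its members here are accessory. Hepatocytes are rich in mitochondria, which supply ATP for glucose and urea synthesis.

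By the classes of the study's design text, 3 compounds were genotoxic carcinogens. They were aflatoxin B1 (AFB, 19 nM), the tobacco nitrosamine 4-(methylnitrosamino)-1-(3-pyridyl)-1-butanone (NNK, 625 µM) and 2-nitrofluorene (2NF, 78 µM). The 3 non-genotoxic carcinogens were the PPARα agonist Wy-14,643 (WYE, 250 µM), the insecticide synergist piperonyl butoxide (PIPB, 13.4 µM) and the antihistamine methapyrilene (MPH, 8.5 µM). The 2 non-carcinogens were the calcium channel blocker nifedipine (NIF, 156 µM) and the α2-adrenergic agonist clonidine (CND, 277 µM). Each compound and each of 4 control groups had 3 arrays after 24 h and 3 after 72 h, 72 arrays in all, from cells exposed 18 to 20 h after plating in serum-free medium with hydrocortisone and insulin. AFB, WYE and CND share the control C(WYE_CND_AFB), while 2NF, PIPB and NIF share C(2NF_PIPB_NIF), and NNK and MPH have controls of their own, C(NNK) and C(MPH). Each title carries a D number, unexplained in the labels: 1 to 3 for the AFB, WYE and CND set, 4 to 6 for MPH, and 7 to 9 for both the 2NF, PIPB and NIF set and the NNK set. Values are intensities of Affymetrix probe sets, scaled by the submitters to a common mean on every array, and levels of different probe sets are not compared. Arrays of a group are listed in the order of their replicate numbers, but sums of cell type markers as the lowest, median and highest array. Changes are differences of mean log2 intensity with their standard error (SE, 3 arrays a group). A change is called where limma's p adjusted over the 18048 probe sets kept is under 0.05. The p-values measure the spread between these arrays. Counts of members at an unadjusted p under 0.05 stand without the share of all probe sets at that cutoff. They are not read as an excess.

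Hepatocyte markers were bright on every array, and their summed intensity over 7 genes ranged from 21360 to 48741. On 10 arrays, all of the AFB, WYE and CND set, the log2 ratio of 3′ to 5′ beta-actin signal, which rises as RNA degrades, was 1.84 to 2.71, against 0.36 to 1.11 on the other 62. They were the 8 arrays of D number 3, AFB replicate 1 at 24 h and AFB replicate 2 at 72 h. The respiratory chain genes moved with that ratio, whose part in them was not tested: 74 of 89 members were brighter on these 10 arrays than on the other 14 of the set, with a median difference of 0.33 on the log2 scale against 0.04 over all probe sets. The complex I accessory genes Ndufs4 (1.08), Ndufb8 (1.01) and Ndufa5 (0.82) stood highest, while the catalytic α and β subunits of ATP synthase, Atp5f1a (−0.64) and Atp5f1b (−0.52), were dimmer. Members also varied more within groups of that set, with a median SD of 0.282 log2 units against 0.132 to 0.162 in the other sets. The D number 3 arrays also ran against their time labels. In both C(2NF_PIPB_NIF) and C(NNK) 105 probe sets were higher and 92 lower at 72 h. A score was the mean log2 level of the 105 minus that of the 92. Its value at 72 h minus that at 24 h was negative in all 4 pairs of D number 3 (−1.89 to −0.62). It was positive in all 14 other pairs of the AFB, WYE, CND and MPH sets (0.88 to 2.97). All groups share 1 estimate of the spread, so these arrays enter the errors of every comparison, and results that rest on them are given with and without them.

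**Figure D1:**
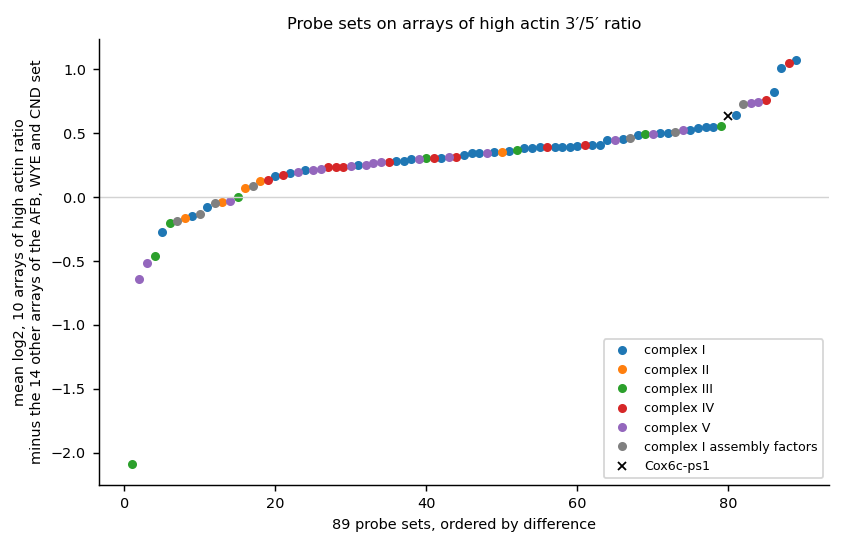
Each point is 1 of the 89 members, ordered along the x axis by its difference in mean log2 intensity between the 10 arrays of high actin ratio and the 14 other arrays of the AFB, WYE and CND set (y axis), and coloured by complex. Above 0 lie 74 points, and the range runs from −2.09 for a noisy probe set of Uqcrc2 to 1.08 for Ndufs4.

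Most of the module was expressed. Of the 96 probe sets 89, of 82 genes, passed the filter on dim probe sets, which asked for a mean at the table's median intensity or above in at least 1 group, and 78 of them averaged over 100 units. The 7 that did not pass included isoforms known from other tissues: Cox8b of muscle, at the floor on all 72 arrays, Cox6b2 and Cox7b2 of testis, and Cox4i2, an isoform of lung that averaged 11.0 units. The others were second probe sets of Atp5me, Atp5po and Ndufa9, whose first probe sets passed. Against the controls the calls were few. The members called were Ndufa7 and Atp5f1d after 72 h of NNK, Ndufa1 and Ndufa4l2 after 72 h of NIF, and Uqcrfs1 after 24 h of AFB, all higher, and no member was called in the other 13 of the 16 comparisons of a compound with its control. The module as a group was displaced by small amounts, with median log2 changes of 0.22 after NNK, 0.21 after 2NF and 0.14 after NIF at 72 h, and between −0.14 and 0.07 in the other 13 comparisons.

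**Figure D2:**
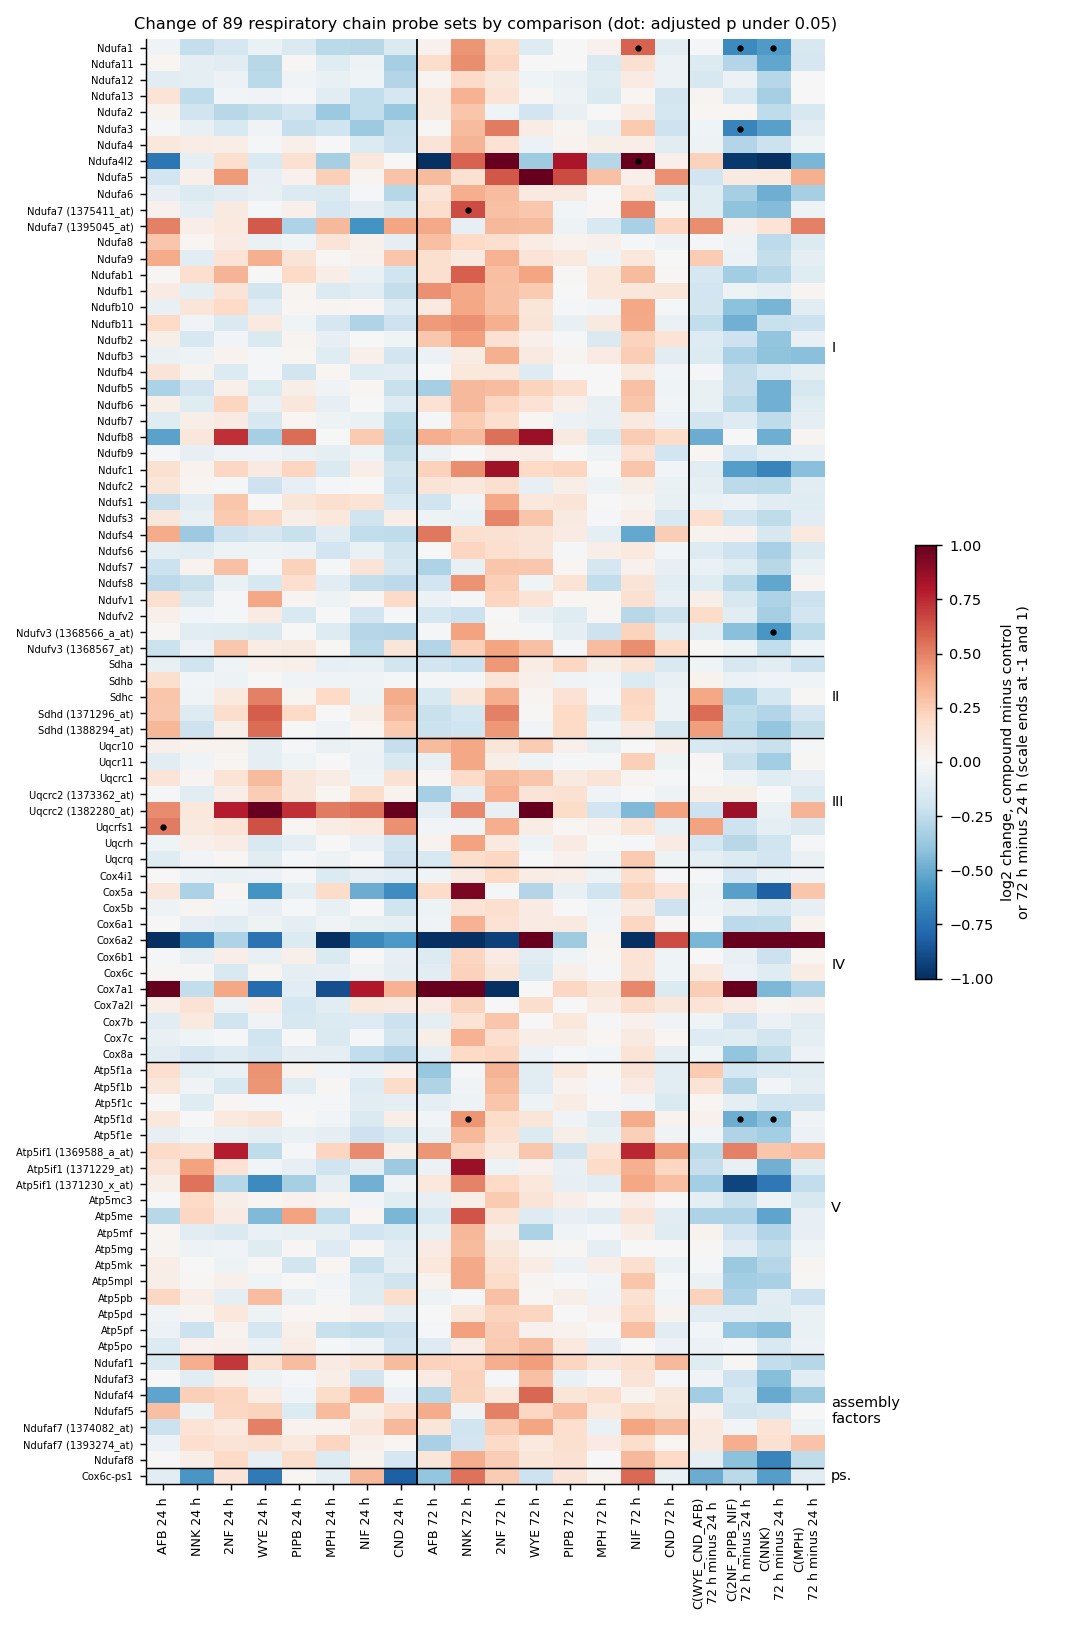
The heat map gives the log2 change of the 89 members (rows, grouped by complex) for each compound against its control at 24 h and 72 h (columns), and for each control group at 72 h against 24 h, on a colour scale that ends at −1 and 1, with a dot where the adjusted p was under 0.05. Broad red columns stand at 72 h for NNK, 2NF and NIF, where 68, 82 and 78 of 89 members were above 0, and blue ones for C(2NF_PIPB_NIF) and C(NNK) over time.

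After 72 h of NNK, 68 of the 89 members were higher than in C(NNK), with a median log2 change of 0.22 against −0.02 over all probe sets, and 2 were called, both higher, where 3.32% of all probe sets were called. Ndufa7, an accessory subunit of complex I, had 1114, 943 and 1026 units on the NNK arrays, against 743, 622 and 596 on the C(NNK) arrays. All 3 NNK arrays lay above all 3 controls, and the log2 change was 0.66 ± 0.17 (SE, adjusted p = 0.0156). A second, dim probe set of Ndufa7 gave −0.08. Atp5f1d, the δ subunit in the rotating stalk of ATP synthase, had 1652, 1491 and 1621 units after NNK, against 1456, 1091 and 1004 in C(NNK). These groups did not overlap either, and the change was 0.44 ± 0.12 (adjusted p = 0.0287). The calls hung on single arrays: that of Ndufa7 was lost without NNK replicate 1 (0.60, adjusted p = 0.103), C(NNK) replicate 2 (0.62, adjusted p = 0.0610) or C(NNK) replicate 3 (0.59, adjusted p = 0.111), and that of Atp5f1d without any of 5 of the 6 arrays, all but C(NNK) replicate 1 (adjusted p between 0.0579 and 0.272). Groups of 37 members did not overlap with NNK above its control and of 1 with NNK below, against 13.3% and 15.1% of all probe sets. NNK and its control pair by D number, and with that number as a block 23 members passed, all higher, where 7.18% of all probe sets passed. Once the 10 arrays of high actin ratio were left out, all of another set, 27 passed, all higher, where 10.7% of all did.

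The 23 members that passed in the block fit against C(NNK) were 11 of 38 tested for complex I, 3 of 8 for complex III, 1 of 12 for complex IV and 8 of 18 for complex V, and 0 of 5 for complex II. Ndufab1, the acyl carrier protein of mitochondria and a complex I subunit, had 1180.3, 1080.4 and 1117 units after NNK, against 963, 615 and 693 in C(NNK). Atp5me, the e subunit in the membrane part of ATP synthase, had 682, 764 and 697, against 489, 435 and 463. Ndufa11, a membrane subunit of complex I, had 1069, 1024 and 1130.0, against 776, 781 and 773. In each of these the NNK arrays stood above all control arrays, and the log2 changes were 0.60 ± 0.20, 0.63 ± 0.21 and 0.47 ± 0.19 (SE), with adjusted p = 0.0132, 0.0204 and 0.0104 from limma with the block and 0.0823, 0.0937 and 0.186 without it. The others in the block fit included Ndufa1, Ndufb2, Ndufb11 and Ndufc1 of complex I, Uqcr10, Uqcr11 and Uqcrh of complex III, Cox6a1 of complex IV, and Atp5pf, Atp5mf, Atp5mg, Atp5mk, Atp5mpl and Atp5f1e of complex V, with log2 changes between 0.32 and 0.66 over the 23. By complex, the median changes were 0.29 for complex I, 0.29 for complex III, 0.22 for complex IV and 0.32 for complex V, but −0.18 for complex II.

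Most of the core subunits listed here lay near 0 or below it after NNK. In complex I the core subunits gave −0.04 (Ndufs1), −0.07 (Ndufs3), −0.08 (Ndufs7), −0.02 (Ndufv1) and −0.22 (Ndufv2) on the log2 scale, and Ndufs8, the exception, 0.45 ± 0.21 (adjusted p = 0.278). The catalytic subunits of ATP synthase gave −0.01 (Atp5f1a) and −0.03 (Atp5f1b), and the Rieske iron-sulfur protein of complex III, Uqcrfs1, −0.04. Atp5f1d and Atp5f1e, of the rotating stalk of ATP synthase, went the other way. Atp5f1d, called above, gave 0.44, and Atp5f1e, which passed in the block fit, gave 0.32. The flavoprotein of succinate dehydrogenase, Sdha, had 759.5, 735 and 828 units after NNK, against 1024, 727 and 974 in C(NNK), groups that overlap. In complex IV the nuclear-encoded subunits Cox4i1 and Cox5b gave 0.09 and 0.13. Cox5a, by its dim probe set, had 125, 91.4 and 112 units against 44.9, 59.9 and 67.3, a change of 0.94 ± 0.40 that passed with the 10 high-ratio arrays left out (adjusted p = 0.00598) but not with them (0.213). None of the subunits listed here other than Cox5a, Atp5f1d and Atp5f1e was called with all arrays, with the block or without the 10 arrays.

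The size of the NNK difference depended on the control. C(2NF_PIPB_NIF) carries the same D numbers 7 to 9, and against it the median change at 72 h was 0.06, with 56 of 89 members higher. Ndufa7 kept its call there, at 0.56 ± 0.17 (adjusted p = 0.0367), beside 767, 664 and 664 units on the 3 C(2NF_PIPB_NIF) arrays. Atp5f1d did not, at 0.35 ± 0.12 (adjusted p = 0.0901), beside 1295, 1094 and 1374 units in those controls. The complex I core subunit Ndufv2 was called lower in this comparison, at −0.53 ± 0.16 (adjusted p = 0.0372), with 846, 625 and 946 units after NNK, against 1134, 1029.8 and 1292 in C(2NF_PIPB_NIF) and 1023, 765 and 1000.3 in C(NNK). Of all probe sets 5.14% were called against that control. With the D number as a block 5 members passed as higher against it and 1 as lower, where 706 and 967 of all 18048 probe sets did. The 5 were 3 of complex I and 2 of complex V, and 0 of complex III and 0 of complex IV passed. Ndufab1 was among them (adjusted p = 0.0272 from limma with the block), but Atp5me (0.341) and Ndufa11 (0.332) were not. Set against each other at 72 h, C(NNK) lay below C(2NF_PIPB_NIF) for 81 of 89 members, by a median of −0.14, with 0 called by limma and 0 at an unadjusted p under 0.05, where 0% of all probe sets were called. At 24 h of NNK 0 members were called, where 0.92% of all were, 0 passed an unadjusted p under 0.05, and Ndufa7 had 761, 886 and 826 units after NNK, against 865, 869.9 and 898 in C(NNK). The difference between the 72 h and 24 h effects was 0.75 ± 0.24 for Ndufa7 (adjusted p = 0.561) and 0.68 ± 0.22 for Ndufa1 (0.574), and these 2 passed once the 10 high-ratio arrays were left out, where 0.355% of all did, beside 0.0277% with all arrays (adjusted p = 0.0431 and 0.0468).

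The promoters of these genes are shown because the nuclear genes of the respiratory chain are known targets of NRF-1 and of the ETS factor GABP (NRF-2 in that literature, not the oxidative stress factor). The RefSeq table (rat build GRCr8) holds the 250 bases before the annotated start of 75 of the 82 genes that passed the filter, and these were searched on both strands for the core of the NRF-1 consensus, with either pyrimidine at its degenerate base, and the ETS core CCGGAAG, which reads CTTCCGG on the other strand. The 4 printed below are of Ndufa7, which was called after NNK (chr7:15311196-15311445, strand +), Atp5f1d, called after NNK and in controls over time (chr7:10214351-10214600, strand −), Ndufa1, called after NIF and in controls over time (chrX:121293556-121293805, strand −), and Atp5me, which passed after NNK in the block fit (chr14:1464610-1464859, strand +), each 5′ to 3′ up to its start, with the motifs in capitals.
Ndufa7: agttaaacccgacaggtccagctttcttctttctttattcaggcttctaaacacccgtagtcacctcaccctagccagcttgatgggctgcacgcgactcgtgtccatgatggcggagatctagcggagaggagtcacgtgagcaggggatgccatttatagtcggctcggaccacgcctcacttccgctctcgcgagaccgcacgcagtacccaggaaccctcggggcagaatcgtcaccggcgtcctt
Atp5f1d: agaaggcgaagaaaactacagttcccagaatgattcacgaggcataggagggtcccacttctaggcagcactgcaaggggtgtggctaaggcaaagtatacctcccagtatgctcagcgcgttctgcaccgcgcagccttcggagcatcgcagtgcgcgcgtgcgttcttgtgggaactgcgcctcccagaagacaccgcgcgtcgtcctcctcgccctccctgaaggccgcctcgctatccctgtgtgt
Ndufa1: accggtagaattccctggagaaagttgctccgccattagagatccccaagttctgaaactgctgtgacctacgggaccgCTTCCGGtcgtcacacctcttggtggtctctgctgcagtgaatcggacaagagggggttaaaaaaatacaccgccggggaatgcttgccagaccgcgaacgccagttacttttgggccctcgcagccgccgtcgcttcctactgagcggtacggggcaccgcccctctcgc
Atp5me: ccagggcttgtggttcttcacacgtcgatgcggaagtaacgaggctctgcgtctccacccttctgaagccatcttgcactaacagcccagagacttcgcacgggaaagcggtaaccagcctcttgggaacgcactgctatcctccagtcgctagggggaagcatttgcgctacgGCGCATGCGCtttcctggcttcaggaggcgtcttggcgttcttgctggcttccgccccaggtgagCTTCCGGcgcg
The windows of Ndufa7 and Atp5f1d hold neither motif, that of Ndufa1 holds CTTCCGG from 171 bases before the start, and that of Atp5me holds the NRF-1 core from 76 bases and CTTCCGG from 11 bases before it. Over the module the NRF-1 core was in 6 of 75 promoters (8.0%), those of Atp5me, Atp5po, Ndufa11, Ndufa12, Ndufaf4 and Ndufaf5, beside 3.68% of the 11734 genes on the array with a promoter in the table. The ETS core was in 21 of 75 (28.0%), beside 12.9%. The 2 motifs do not overlap in the windows printed. Among the 21 genes with a promoter that passed after 72 h of NNK in the block fit, 2 (9.52%) hold the NRF-1 core and 8 (38.1%) the ETS core. These are descriptions of letters and not binding sites, and no factor's binding was measured.

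NIF at 72 h raised Ndufa4l2 and Ndufa1, the 2 members called, where 3.18% of all probe sets were called. Ndufa4l2, a relative of the complex IV subunit Ndufa4 that is induced by hypoxia in human and mouse cells, had 160.1, 152 and 147 units after NIF, against 22.3, 24.5 and 20.7 in C(2NF_PIPB_NIF). The NIF arrays lay far above the controls and close to each other, and the log2 change of 2.77 ± 0.69 (adjusted p = 0.0161) was the largest of any member against a control. Its SE is pooled over all sets, and the AFB, WYE and CND arrays with their controls ranged from 11.2 to 264 units, while with the arrays of its own set alone the adjusted p was 9.66e-06. The call was lost without any of 4 of its 6 arrays (adjusted p between 0.0531 and 0.0799), NIF replicate 1 and each of the 3 controls, with a change of 2.71 to 2.83. The other compounds of the set gave 63.4, 45.4 and 51.0 units (2NF) and 52.6, 31.2 and 38.0 units (PIPB), neither called. Ndufa1, an accessory subunit needed to assemble the membrane arm of complex I, had 2168, 2136 and 2265 units after NIF, against 1529, 1305 and 1539 in C(2NF_PIPB_NIF). The groups did not overlap, with a change of 0.59 ± 0.16 (adjusted p = 0.0227), a call lost without NIF replicate 1 or 3 or control replicate 1 or 2 (adjusted p between 0.0525 and 0.157).

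In all, 78 of 89 members were higher after 72 h of NIF, with a median of 0.14 against −0.07 over all probe sets. The median was 0.09 without control replicate 2, 0.04 after quantile normalization and 0.27 against C(NNK). Of 28 members the groups did not overlap with NIF above, and of 0 with NIF below, against 13.6% and 20.2% of all. With the D number as a block 5 members passed, all higher, where 7.78% of all passed: Ndufa4l2, Ndufa1, Ndufa7 (0.49), Atp5f1d (0.37) and Atp5if1. Atp5if1 encodes the inhibitor that keeps ATP synthase from running backwards, and its brightest probe set had 1353, 1339 and 1574 units after NIF, against 914, 852 and 766 in C(2NF_PIPB_NIF). All NIF arrays were above all controls, with a change of 0.75 ± 0.27 (adjusted p = 0.0138 with the block and 0.109 without), while its 2 other probe sets gave 0.36 and 0.39 and did not pass. Ndufa7 had 1084, 973 and 884 units after NIF, above all 3 controls. Core subunits gave 0.03 (Ndufs1), 0.13 (Sdha), 0.14 (Uqcrfs1) and 0.08 (Atp5f1b), and Cox4i1 of complex IV 0.18. At 24 h NIF left 0 members called, where 0.46% of all were, and 1 was at an unadjusted p under 0.05. Ndufa1 was then at 1660.1, 1888 and 2056 units after NIF, against 2284, 2229.6 and 2254 in the control, all NIF arrays lower, and the 72 h effect minus the 24 h effect was 0.87 ± 0.22 (adjusted p = 0.110, and 0.00220 with the block, where 0.116% and 0.327% of all passed). Macrophage markers were lower after 72 h of NIF: their summed intensity was 531, 1064 and 1161 units (lowest, median and highest array), against 921, 1863 and 2011 in the control, and 3 of 13 were called lower (Cd163, Aif1 and C1qa), with Alb and the other hepatocyte markers bright in both. Bile duct markers summed to 574, 650.0 and 743 units after NIF, against 800.1, 904 and 995 in the control, without overlap, with a median change of −1.56 over 2 genes, 0 of them called with all arrays and 1 with the block. The sum is mostly Epcam, which averaged 493 units over all arrays, beside 27.1 for Krt7, the other of these 2 genes. Endothelial markers, at sums of 20.3, 21.9 and 34.1 units against 31.6, 39.4 and 43.6, were lower for 4 of 4 genes (median −0.58), 0 of them called. Of the 6 endothelial genes summed, 1 to 4 were at the floor on the NIF arrays and 2 to 3 on the control arrays. The part of these cells in the result was not tested, and in bulk RNA fewer cells of a type cannot be told apart from less RNA per cell.

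**Figure D3:**
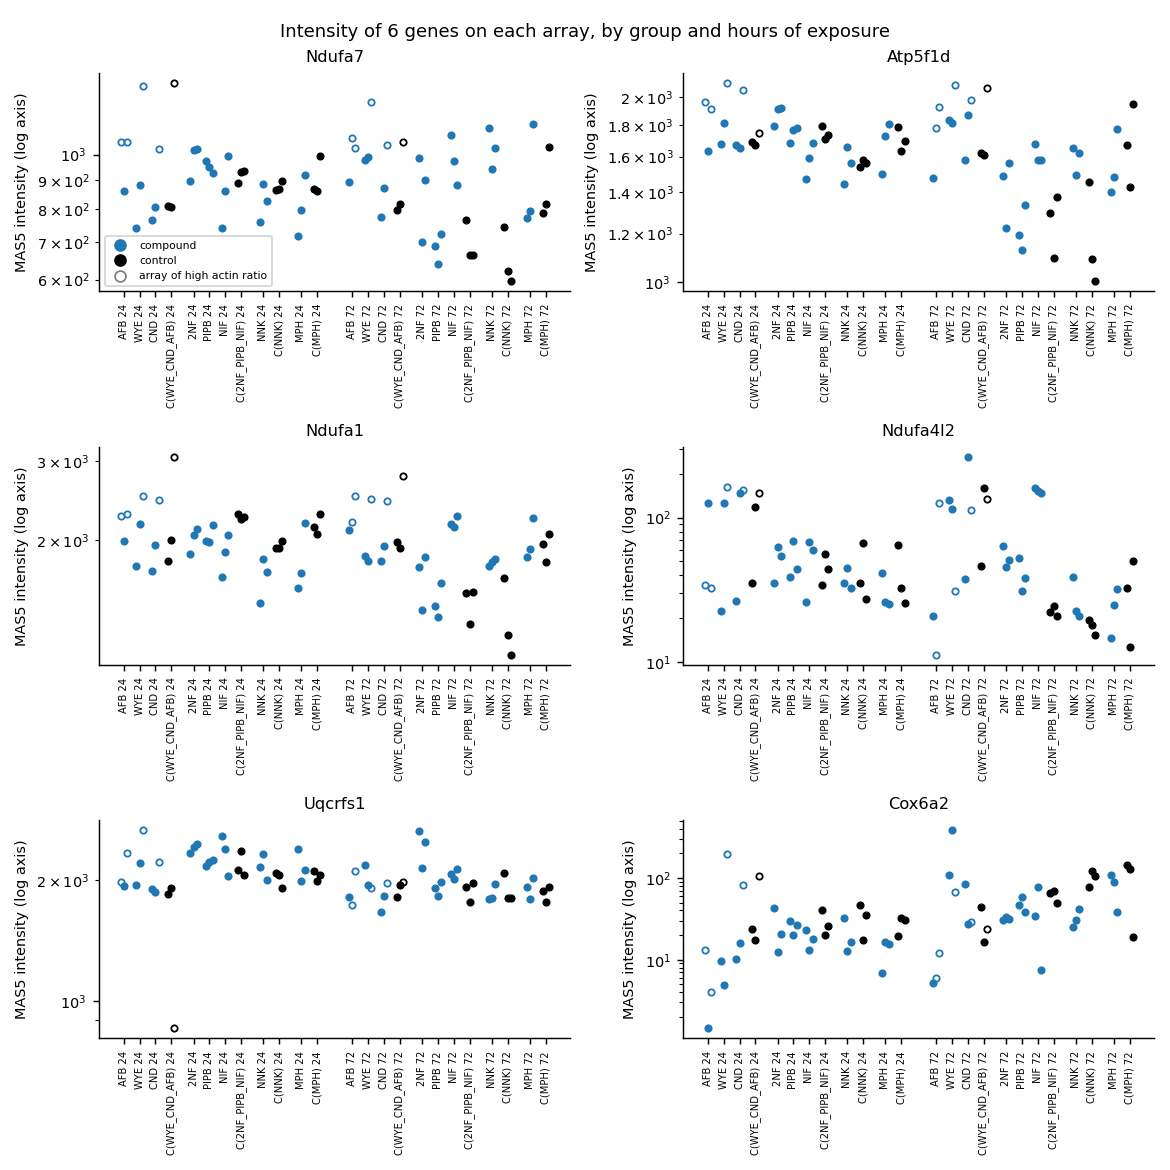
Each point is the intensity (log axis) of 1 gene on 1 array, for Ndufa7, Atp5f1d, Ndufa1, Ndufa4l2, Uqcrfs1 and Cox6a2, with the compounds left of their control at 24 h and then at 72 h, and open symbols for arrays of high actin ratio. The 3 NIF arrays of Ndufa4l2, at 147 to 160 units, stand apart from their controls at 20.7 to 24.5.

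After 72 h of 2NF, 82 of 89 members were higher than in C(2NF_PIPB_NIF), the widest share among the 16 comparisons, with a median change of 0.21 against −0.07 over all probe sets, 0.12 after quantile normalization and 0.34 against C(NNK). No single member was called by limma, where 0.809% of all probe sets were called. At an unadjusted p under 0.05 stood 16 members, 15 of them higher. Of 21 members the groups did not overlap with 2NF above and of 2 with 2NF below, against 8.74% and 13.6% of all. With the D number as a block 3 passed, where 1.69% of all did. Ndufc1, a small accessory subunit of complex I, had 1612, 1073 and 1678 units after 2NF, against 822, 684 and 890.4 in the control. Ndufs3, a core subunit of the same complex, had 933, 704 and 999, against 633, 568 and 659. Sdha had 1221, 1126 and 1359, against 942, 834 and 961. None of the 3 overlapped, replicate 2 was the lowest of each group, and the changes were 0.85 ± 0.23, 0.49 ± 0.16 and 0.44 ± 0.13 (SE), with adjusted p = 0.000389, 0.0167 and 0.0487 with the block and 0.0584, 0.195 and 0.113 without it. Complex II had the highest median of the complexes, at 0.43, and 4 of its 5 probe sets were at an unadjusted p under 0.05. This count and that of the 16 members stand without the share of all probe sets at that cutoff, and are not read as an excess. The membrane anchor Sdhc had 1956, 1629 and 1804 units after 2NF, against 1511, 1318 and 1350.0, and the other anchor Sdhd had 1864, 1656 and 2051, against 1439, 1209 and 1488, both without overlap. The iron-sulfur subunit Sdhb, at 1676, 1466 and 1822 against 1579, 1404 and 1554, overlapped.

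With the 10 high-ratio arrays left out, which belong to another set, 9 members passed after 2NF, all higher, where 2.33% of all did. They were Ndufc1 (0.85), Sdhd (0.51), Ndufs3 (0.49), Sdha (0.44), Ndufs1 (0.38), Uqcrfs1 (0.36), Ndufa9 (0.34), Uqcrc2 (0.34) and Atp5f1a (0.34). Uqcrfs1 had 2649.8, 2145 and 2483 units after 2NF, against 1921, 1765 and 1961 in the control. Of these 9 and of the 27 that passed after NNK in the same fit 0 were shared, while in the block fit Ndufc1 was shared, 1 of the 3 after 2NF (33.3%) and of the 23 after NNK (4.35%), and the 2 comparisons have no arrays in common. The difference of the 2 effects was itself fitted, a test added after the values were seen. NNK minus 2NF gave −0.65 ± 0.18 for Sdha (adjusted p = 0.0638 with all arrays and 0.0138 without the 10), −0.56 ± 0.23 for Ndufs3 (0.309 and 0.0355) and −0.40 ± 0.20 for Uqcrfs1 (0.482 and 0.0370). With all arrays 0 members passed, where 0.97% of all did, and without the 10 arrays 7 passed, where 4.6% did: these 3, both probe sets of Sdhd and 1 of Uqcrc2, lower with NNK, and Cox7a1, higher with NNK. The difference did not pass for Ndufa7, called after NNK, at 0.36 ± 0.24, or for Ndufa11, which passed after NNK with the block, at 0.26 ± 0.27. At 24 h 2NF had a member median of 0.05 and 0 members called, where 1.13% of all were called, and 3 at an unadjusted p under 0.05 (Atp5if1, Ndufaf1 and Ndufs1). Without the 10 arrays 3 passed, Atp5if1 (0.79), the membrane arm subunit Ndufb8 (0.73) and the assembly factor Ndufaf1 (0.70), where 4.37% of all did. Macrophage markers summed to 557, 1207 and 1259 units after 72 h of 2NF (lowest, median and highest), against 921, 1863 and 2011 in the control, 12 of 13 lower and 0 called, and bile duct markers to 632, 765 and 804, against 800.1, 904 and 995, and their part was not tested.

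**Figure D4:**
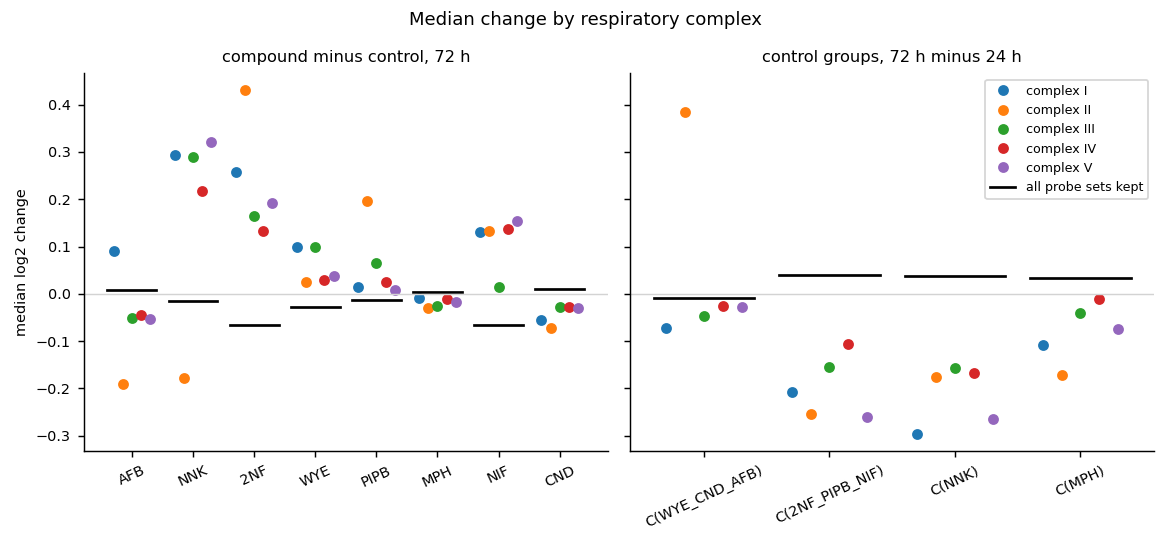
The points are the median log2 changes of the members of each complex at 72 h for every compound against its control (left), and for each control group at 72 h against 24 h (right), with black lines at the median of all 18048 probe sets. Complex II has a median of −0.18 after NNK and 0.43 after 2NF.

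In control cells of D numbers 7 to 9 the module was lower at 72 h than at 24 h. In C(NNK) 82 of 89 members were lower, with a median change of −0.25 against 0.04 over all probe sets, and 3 were called lower, where 2.85% of all were called. Ndufv3, an accessory subunit beside the NADH site of complex I, had 444, 408 and 446 units at 72 h, against 658, 593 and 696 at 24 h, a change of −0.58 ± 0.16 (adjusted p = 0.0389). Ndufa1 had 1647, 1234 and 1114 units at 72 h, against 1922, 1922 and 1989 at 24 h (−0.57 ± 0.16, adjusted p = 0.0340). Atp5f1d had 1456, 1091 and 1004 units, against 1539, 1582 and 1561 (−0.42 ± 0.12, adjusted p = 0.0469). None of the 3 overlapped between the times, and for Ndufa1 and Atp5f1d the 24 h arrays lay close together while the 72 h arrays were spread, replicate 1 highest. In C(2NF_PIPB_NIF) 77 of 89 were lower, with a median of −0.19 (−0.09 after quantile normalization) against 0.04 over all, and 3 were called lower, where 2.71% of all were: Ndufa3 (−0.66 ± 0.19, adjusted p = 0.0426), Ndufa1 (−0.63 ± 0.16, adjusted p = 0.0206) and Atp5f1d (−0.49 ± 0.12, adjusted p = 0.0218). Ndufa3, another small complex I subunit, had 1197, 803 and 1124 units at 72 h, against 1673, 1545 and 1649 at 24 h. Each of these 6 calls was lost in 4 to 6 of the 6 fits that left out 1 of its arrays, with adjusted p up to 0.329 and with changes between −0.77 and −0.31 in those fits. Ndufa4l2 had 19.6, 18.0 and 15.3 units at 72 h, against 35.0, 66.3 and 27.3 at 24 h in C(NNK), and 22.3, 24.5 and 20.7, against 34.4, 55.8 and 44.3 in C(2NF_PIPB_NIF), without overlap and not called. Groups did not overlap, with 72 h lower, for 50 members in C(NNK) and 42 in C(2NF_PIPB_NIF), against 15.3% and 13.9% of all probe sets. Without the 10 arrays of high actin ratio, which hold none of these, 27 members passed as lower in C(NNK), where 12.6% of all passed, and 13 in C(2NF_PIPB_NIF), where 9.97% did. The C(NNK) arrays of 72 h also serve as the control of NNK, and those of C(2NF_PIPB_NIF) as the control of 2NF, PIPB and NIF, so the 2 kinds of comparison share arrays.

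The other control groups gave smaller values. In C(MPH) 68 members were lower at 72 h, with a median of −0.09 and 0 called, where 0.51% of all were. That median was 0.003 without C(MPH) replicate 2 at 72 h. With the D number block, where 3.46% of all passed, 1 member did, Ndufb3 of complex I (−0.42, adjusted p = 0.0472). In C(WYE_CND_AFB) the median was −0.04 with 0 called by limma, where 0% of all were, and 4 at an unadjusted p under 0.05, and the median was 0.04 without the D number 3 arrays and 0.18 without control replicate 3 at 24 h alone. Bile duct markers were higher at 72 h in both D number 7 to 9 controls, with sums of 741, 857 and 1012 units at 72 h, against 266, 297 and 345 at 24 h in C(NNK) (lowest, median and highest), and Krt7 and Epcam called higher. Endothelial markers were lower, with sums of 32.0, 40.5 and 64.4 units at 72 h, against 136, 148 and 149 at 24 h in C(NNK). Their part in the lower respiratory chain levels was not tested.

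WYE at 72 h, an agonist of PPARα, the receptor that switches on fatty acid oxidation in liver, gave a member median of 0.07 against −0.03 over all probe sets, with 61 of 89 higher and 0 called, where 7.31% of all were called and 6 members stood at an unadjusted p under 0.05. With the D number block, which pairs these arrays, 4 members passed, where 13.2% of all did. Cox6a2, the heart and skeletal muscle isoform of a complex IV subunit, had 108, 383 and 67.1 units after WYE, against 43.5, 16.3 and 23.8 in the control. All WYE arrays were above all controls, replicate 2 by far the most, and the change was 2.45 ± 0.83 (adjusted p = 0.0325 with the block, 0.0596 without). Ndufa5, an accessory subunit of complex I, had 407, 1089 and 811 units, against 262, 228 and 525, and Ndufb8, of its membrane arm, 306, 459.7 and 532, against 179, 182 and 379.8. Both overlapped, with replicate 3 of the control above the dimmest WYE array, and both are among the genes that stood highest on the arrays of high actin ratio. Atp5mf, the f subunit of ATP synthase, passed as lower (−0.32 ± 0.11, adjusted p = 0.00426 with the block), with 2386, 2043 and 2638 units after WYE, against 2719, 2887 and 3167 in the control. Without the D number 3 arrays, which leaves 2 arrays a group, 6 members passed as higher and 1 as lower, where 9.15% of all passed: Cox6a2 (2.93), a noisy probe set of Uqcrc2 (2.03), Ndufa5 (1.45), Ndufb8 (1.06), the assembly factor Ndufaf7 (0.55), the complex III core protein Uqcrc1 (0.37) and Atp5mf (−0.34). The member median was 0.00 without control replicate 1, 0.05 without control replicate 2, 0.17 without control replicate 3 and 0.02 without WYE replicate 3. Core subunits had changes of 0.11 (Ndufs1), 0.07 (Sdha), 0.07 (Uqcrfs1) and −0.11 (Atp5f1b), and Cox4i1 of complex IV 0.08. Macrophage markers summed to 472, 588 and 791 units after WYE (lowest, median and highest), against 816, 1287 and 1392 in the control, with 4 called lower (Ptprc, C1qb, C1qc and Tyrobp). Hepatocyte markers summed to 21360, 23047 and 26663 units after WYE, against 28970, 30664 and 33580 in the control, without overlap, 7 of 7 lower (median −0.43), with Apoa1 and Ttr called lower. The part of these markers in the result was not tested.

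The call of Uqcrfs1 after 24 h of AFB was lost without control replicate 3 or AFB replicate 3, both of D number 3. Without AFB replicate 3 the change was 0.43 (adjusted p = 0.210). Uqcrfs1 had 1972, 1936 and 2335 units after AFB, against 1850.0, 1909 and 858 in C(WYE_CND_AFB), and 1947, 2207 and 2657 after WYE and 1896, 1863 and 2222 after CND. Control replicate 3, a D number 3 array of high actin ratio, was far below the 11 others. The change with AFB was 0.52 ± 0.14 (adjusted p = 0.0256), where 3.33% of all probe sets were called, and without that array it was 0.14 (adjusted p = 0.532). With WYE it was 0.64 with and 0.26 without the array, and with CND 0.46 and 0.08. Without it 0 members were called at 24 h for these 3 compounds, and the member medians were 0.19 (AFB), 0.16 (WYE) and 0.07 (CND), against 0.01, −0.05 and −0.14 with it. The D number 3 arrays of the compounds, also of high actin ratio, stayed in that fit. Without all D number 3 arrays, which leaves 2 arrays a group, the medians were 0.15 (AFB), −0.0019 (WYE) and −0.055 (CND). In that fit limma called 1 member, Ndufa8, higher with AFB (0.48, adjusted p = 0.0367), where 4% of all probe sets were called. With all arrays 5, 14 and 8 members were at an unadjusted p under 0.05 for AFB, WYE and CND, without the share of all probe sets at that cutoff. Of all probe sets 0.0443% were called with WYE and 0.0166% with CND at 24 h.

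AFB at 72 h left the module's median at −0.01, with 0 members called by limma, where 4.91% of all probe sets were called, and 5 at an unadjusted p under 0.05. That median lay between −0.08 and 0.08 when 1 array was left out, above 0 without AFB replicate 1 or control replicate 3. Macrophage markers summed to 1692, 1932 and 2342 units after AFB (lowest, median and highest), against 816, 1287 and 1392 in the control, without overlap, with 12 of 13 genes higher (median 1.07). Stellate cell markers were higher for 6 of 7 (median 0.83), 0 in either list were called, and their part was not tested. Without the D number 3 arrays, which leaves 2 arrays a group, 4 members passed as higher and 5 as lower, where 12.8% of all passed. The catalytic subunits of ATP synthase were among the lower ones, Atp5f1a at −0.62 and Atp5f1b at −0.54, with Uqcrc2 at −0.54, Cox6a2 at −2.26 and Ndufa4l2 at −2.49. Atp5f1a had 1903, 1002 and 1259 units after AFB, against 2096, 2135 and 1188 in the control. AFB replicate 2, the lowest, is 1 of the arrays of high actin ratio, on which Atp5f1a was dimmer on average. The higher ones were Atp5if1 (0.70), Ndufb11 (0.62), Ndufb1 (0.50) and Ndufa8 (0.47), and without all 10 arrays of high actin ratio, which leaves 1 AFB array at each time, 0 members passed, where 2.22% of all did. CND at 72 h had a member median of −0.04 and 0 called, where 0.0332% of all were called, and 1 at an unadjusted p under 0.05.

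No member was called with PIPB or MPH at either time. The member medians were 0.00 at 24 h and 0.04 at 72 h for PIPB, and −0.05 and −0.01 for MPH, and limma called 0.0887% and 0% of all probe sets with PIPB and 0% and 0% with MPH. At an unadjusted p under 0.05 there were 0 members with PIPB at either time, 1 with MPH at 24 h and 0 at 72 h. For Sdha at 72 h the 95% interval of the change was −0.05 to 0.47 log2 units with PIPB and −0.20 to 0.31 with MPH, and for Atp5f1b it was −0.38 to 0.46 and −0.44 to 0.40. For Ndufa7, called after NNK, the interval was −0.36 to 0.31 with PIPB and −0.32 to 0.36 with MPH.

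The muscle isoforms of complex IV were dim and differed widely between arrays and compounds. At 72 h Cox6a2 had 5.20, 5.92 and 12.1 units after AFB, against 43.5, 16.3 and 23.8 in C(WYE_CND_AFB). It had 24.8, 30.8 and 42.1 units after NNK, against 78.0, 123 and 104 in C(NNK), and 30.6, 33.4 and 31.4 after 2NF, against 64.6, 69.8 and 49.3 in C(2NF_PIPB_NIF). All arrays of each of these genotoxic carcinogens lay below all arrays of its control, and the changes were −1.83 ± 0.83, −1.65 ± 0.83 and −0.93 ± 0.83, none called (adjusted p = 0.243, 0.327 and 0.882). NIF, a non-carcinogen with the same control as 2NF, gave 34.2, 77.1 and 7.58 units, which overlap that control, and a change of −1.16 ± 0.83 (adjusted p = 0.523), larger in size than that of 2NF. PIPB gave 46.8, 58.2 and 38.7 units and MPH 107, 89.7 and 38.7, against 142, 129.6 and 19.2 in C(MPH). The mean effect of the genotoxic minus the non-genotoxic carcinogens was −2.18 ± 0.55 on the log2 scale (adjusted p = 0.0182), the 1 member called in that contrast, where 2.22% of all probe sets were called. The higher values with WYE, given above, form part of that contrast, and the call was lost without WYE replicate 2 (−1.94, adjusted p = 0.0558) or C(MPH) replicate 3 (−1.86, adjusted p = 0.0595). Over the module the contrast had a median of 0.14 at 72 h, with 69 of 89 members above 0, and of 0.03 at 24 h, with 0 called by limma, where 0.997% of all were called, and 2 at an unadjusted p under 0.05. With the block 10 members passed at 72 h, 9 higher with the genotoxic compounds, where 4.5% of all did. The D numbers do not pair the AFB arrays of this contrast with their control. Cox7a1, another muscle isoform, had 30.5, 90.6 and 47.0 units after AFB, against 22.5, 23.5 and 11.8 in its control, and 1.80, 10.1 and 2.78 after 2NF, against 10.5, 15.1 and 13.3, where values under the floor of 3.12 units were raised to it before testing. The AFB arrays were all above and the 2NF arrays all below their controls, and neither change was called (1.46 ± 0.62 and −1.47 ± 0.62, adjusted p = 0.201 and 0.455).

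Genes that act beside the respiratory chain were counted from lists of carriers, citric acid cycle enzymes, assembly factors, regulators of mitochondrial biogenesis and mitochondrial ribosomal proteins, of which 6, 11, 29, 14 and 73 were measured, and 2 subunits outside the rule, Cyc1 and Dmac2l. The mitochondrial ribosome makes the subunits encoded in mitochondrial DNA. After 72 h of NNK 62 of 73 ribosomal genes were higher, with a median of 0.21, and Mrps17 was called (0.71), as were Cox15, which makes the haem of complex IV (0.49), and Esrra, a nuclear receptor of oxidative metabolism (1.23), all higher. After 2NF 63 of 73 ribosomal genes were higher, with a median of 0.14, and 10 of 11 citric acid cycle genes, with a median of 0.35, and the calls were the complex I assembly factor Acad9 (0.64) and the mitochondrial DNA polymerase Polg (0.74). After NIF 52 of 73 ribosomal genes were higher, with a median of 0.11, and the 1 call was the complex II assembly factor Sdhaf1, lower (−0.80). At 72 h of WYE, which called no member of the module, cytochrome c1 (Cyc1, 0.50), the succinyl-CoA ligase subunits Sucla2 (0.60) and Suclg1 (0.66), Esrra (1.19), the mitochondrial DNA factor Tfam (0.89) and 4 ribosomal proteins between 0.44 and 0.82 were called higher, and 66 of 73 ribosomal genes were above 0, with a median of 0.23. AFB at 72 h raised Esrra (1.64) and Acad9 (0.54) and lowered citrate synthase (Cs, −0.48), Polg (−0.69), the haem enzyme Cox10 (−0.66) and Nubpl, which delivers iron-sulfur clusters to complex I (−1.19). Cox10 and Nubpl were also lower with AFB at 24 h (−0.65 and −1.44), where the citric acid cycle enzyme Mdh2 was higher (0.72). In C(NNK) over time 2 of 73 ribosomal genes were higher at 72 h, with a median of −0.33, and Mrps27 (−0.68), Mrpl38 (−0.92) and the complex IV assembly factor Cox16 (−0.57) were called lower.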

How the data were processed

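The deposited table holds linear intensities of 31099 probe sets on 72 arrays, made by the authors with MAS5, per the submitters' processing notes (its version is not stated there), and the 2% trimmed mean of every array was 99.9924 to 99.9926. Genes were named from the platform annotation, which gives 1 symbol to 20826 probe sets and several to 436. Values under the 20th percentile, 3.12, were raised to it and taken to log2. Of the probe sets, 57 control sets and those below the table median of 19.7 in all groups were left out, leaving 18048 (58%). limma 3.58.1 (R 4.3.3) was fitted to 24 groups of 3 arrays (48 residual degrees of freedom, trend in the prior), with Benjamini-Hochberg adjustment in each comparison at 0.05, after a test on simulated data. Array number limits the precision, and the labels do not say that replicates are separate cultures or animals.

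The D numbers paired arrays in every comparison of a compound with its control other than those of AFB, since same-numbered arrays deviated together (correlations above 0.1), and also over time in C(WYE_CND_AFB) and C(MPH). Named members were the called ones, the core subunits and the tissue isoforms, and for other lists the called genes; members that passed only in an alternative were named after their values were seen. Members and lists were chosen with earlier results of these data known. Alternatives were another log scale, quantile normalization, no filter, 1 probe set per gene, each set fitted alone, the D number as a block, arrays left out and, chosen after seeing the data, leaving out the 10 arrays of high actin ratio, that ratio as a covariate, and another control group.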

Additional observations from a re-analysis of the deposited data

How the results depend on the processing

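No called member changed direction under any alternative run, and the member medians for NNK, 2NF and NIF at 72 h and for C(2NF_PIPB_NIF) and C(NNK) over time kept their sign in all of them. Counts of members called stand here with no share of all probe sets beside them, and they are not read as an excess. That share moved with the setting too. For NNK at 72 h it was 3.32% in the main fit, 7.18% with the block and 10.7% once the 10 high-ratio arrays were dropped. For WYE at 24 h it went from 0.0443% to 0.00554% once those 10 were dropped. The counts of members called depend on which arrays estimate the spread. With the D number as a replicate block they were 23 for NNK, 3 for 2NF, 5 for NIF, 4 for WYE and 1 for AFB at 72 h, 1 for 2NF, 2 for AFB and 1 for WYE at 24 h, 10, 24 and 1 for C(2NF_PIPB_NIF), C(NNK) and C(MPH) over time, 10 for the genotoxic contrast at 72 h and 1 for the difference of the NIF effects between times. The numbers do not pair the AFB arrays, nor those of C(2NF_PIPB_NIF) and C(NNK) over time (same-number correlations of −0.134 to −0.0206). With each set fitted alone the counts were 14 (NNK), 11 (2NF) and 7 (NIF) at 72 h, 3 (2NF) and 0 (AFB) at 24 h, 22 and 20 for C(2NF_PIPB_NIF) and C(NNK) over time and 2 for the NIF difference. Without the D number 3 arrays they were 20 (NNK), 4 (2NF), 5 (NIF), 7 (WYE) and 9 (AFB) at 72 h, 2 (2NF) at 24 h, 8 and 19 for C(2NF_PIPB_NIF) and C(NNK) over time, 9 for the genotoxic contrast and 1 each for the NIF and WYE differences. Without the 10 arrays of high actin ratio they were 27 (NNK), 9 (2NF), 6 (NIF) and 8 (WYE) at 72 h, 3 (2NF) and 0 (AFB) at 24 h, 13 and 27 for these controls over time, 6 for the genotoxic contrast, and 1, 2 and 1 for the NIF, NNK and WYE differences. With the actin ratio as a covariate they were 27 (NNK), 3 (2NF), 7 (NIF), 4 (WYE) and 2 (AFB) at 72 h, 3 (2NF), 4 (AFB) and 1 (WYE) at 24 h, 22 for C(NNK) over time, 4 for the genotoxic contrast, and 1 and 3 for the NIF and NNK differences. Against C(NNK) as the other control 8 members were called for 2NF and 6 for NIF at 72 h. With 1 probe set per gene the counts were 2 (AFB) and 1 (WYE) at 24 h and 1 for both 2NF and WYE at 72 h, and on the log2(value + 16) scale 2 (AFB) at 24 h and 1 for both AFB and WYE at 72 h. Over time, quantile normalization left 1 in both C(2NF_PIPB_NIF) and C(NNK), and no filter left 1 in C(NNK). The cause was not tested. Leaving out 1 array at a time gave 0 to 5 for NNK, 0 to 2 for 2NF, 0 to 2 for NIF, 0 to 5 for WYE and 0 to 1 for AFB at 72 h, 0 to 2 for AFB, 0 to 4 for WYE and 0 to 1 for CND at 24 h, 0 to 2 and 0 to 3 for C(2NF_PIPB_NIF) and C(NNK) over time, 0 to 2 for the genotoxic contrast and 0 to 1 for the WYE difference. Members near the floor, such as Cox7a1, have values that the floor limits.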
